A study of Mus musculus with 2 samples.

Results

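The 4 mouse Hox gene clusters were examined for 5-hydroxymethylcytosine (5hmC) in kidney. HoxA lies on chromosome 6 (52104000 to 52212500), HoxB on chromosome 11 (96054000 to 96231000), HoxC on chromosome 15 (102750000 to 102869000) and HoxD on chromosome 2 (74500000 to 74606000), all in the mm9 build, bounds that were set by position and not by 5hmC. They span 102 of the 494470 autosomal steps of 5 kb and hold the 38 Hox genes considered here, 10 each in HoxA and HoxB and 9 each in HoxC and HoxD. Genomic DNA of kidneys from male C57BL/6 mice aged 6 weeks, an inbred laboratory strain, gave 1 library enriched with an antibody against 5hmC (hMeDIP, hydroxymethylated DNA immunoprecipitation) and 1 input library without antibody. How many animals the DNA came from is not given in the labels. Neither library was replicated, so there is no test between conditions, and each 95% interval below covers counting error only. Reads without molecular identifiers are also not independent molecules. There were 11424027 fragments in the hMeDIP library and 8316507 in the input. Each value is an average over all cell types of the organ.

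Hox genes encode homeodomain transcription factors that give regions along the body axis their identity. Within a cluster the genes stand in the order in which they act along that axis, from the anterior groups (1 to 4) to the posterior groups (up to 13), and nearly all genes of a cluster are transcribed in the same direction. Silent stretches of the clusters are classic targets of Polycomb proteins, and Hox promoters are known for CpG-rich sequence. In the kidney, the group 11 genes Hoxa11, Hoxc11 and Hoxd11 are needed for the organ to form, and Hoxb7 is a widely used marker of the ureteric bud and its collecting ducts. 5hmC is made from 5-methylcytosine by TET enzymes, in mammalian tissue mostly at CpG, the dinucleotide CG.

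No gene positions on mm9 were used here, so 5hmC is given by place in the cluster and not per gene. The order of the genes was taken from the RefSeq gene table of GRCm38.p6. There the HoxA genes run from Hoxa2 at the low coordinates to Hoxa13 at the high ones, while HoxB, HoxC and HoxD begin with Hoxb13, Hoxc13 and Hoxd13 and end with Hoxb1, Hoxc4 and Hoxd1. The same orientation was taken to hold in mm9. The end next to Hoxa13, Hoxb13, Hoxc13 or Hoxd13 is called the group 13 end, and the opposite one the anterior end. On the group 13 side the next protein-coding genes of that table are Evx1 for HoxA and Evx2 for HoxD, a pair of related homeobox genes, Ttll6 for HoxB and Calcoco1 for HoxC. On the anterior side they are Skap2 for HoxA and its relative Skap1 for HoxB, Smug1 for HoxC and Mtx2 for HoxD.

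Promoter windows from RefSeq (GRCm38.p6, 250 bases before to 50 after the start) were matched by symbol for 22 of the 38 genes, in 24 windows because Hoxa10 and Hoxd11 have an alternative start. No window was matched for Hoxa4, Hoxb2, Hoxb3, Hoxb5, Hoxb6, Hoxb7, Hoxb9, Hoxb13, Hoxc5, Hoxc6, Hoxc8, Hoxc9, Hoxc10, Hoxc11, Hoxc12 and Hoxc13. The sequences below show the range of CpG content, the base pair step at which the mark is made. They are the window with the most CpG, the other group 13 window, and the windows tied for the fewest. Capitals mark each CG, which reads the same on both strands and occurs at least once in 94.6% of all 32851 windows. Hoxa13 (chr6:52260831-52261130, minus strand) and Hoxd13 (chr2:74667975-74668274, plus strand) act in the digits and the urogenital tract. Hoxa9 (chr6:52227321-52227620, minus strand) acts in the lumbar spine and in blood progenitors, Hoxd11 (chr2:74679308-74679607, plus strand) in the forearm and kidney, and Hoxd4 (chr2:74721728-74722027, plus strand) in the cervical spine.
Hoxa13: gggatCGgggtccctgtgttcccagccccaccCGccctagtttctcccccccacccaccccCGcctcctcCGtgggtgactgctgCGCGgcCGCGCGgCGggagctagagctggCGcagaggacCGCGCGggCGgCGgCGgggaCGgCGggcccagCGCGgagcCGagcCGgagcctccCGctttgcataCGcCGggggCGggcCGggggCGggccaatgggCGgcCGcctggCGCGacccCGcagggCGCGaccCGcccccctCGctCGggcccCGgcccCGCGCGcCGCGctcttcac
Hoxd13: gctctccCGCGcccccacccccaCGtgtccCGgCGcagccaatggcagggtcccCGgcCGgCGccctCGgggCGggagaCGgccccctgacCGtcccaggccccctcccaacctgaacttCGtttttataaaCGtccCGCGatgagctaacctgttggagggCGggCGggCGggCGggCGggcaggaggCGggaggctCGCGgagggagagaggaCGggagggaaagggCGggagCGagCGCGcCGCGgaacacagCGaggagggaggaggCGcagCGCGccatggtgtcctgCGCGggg
Hoxa9: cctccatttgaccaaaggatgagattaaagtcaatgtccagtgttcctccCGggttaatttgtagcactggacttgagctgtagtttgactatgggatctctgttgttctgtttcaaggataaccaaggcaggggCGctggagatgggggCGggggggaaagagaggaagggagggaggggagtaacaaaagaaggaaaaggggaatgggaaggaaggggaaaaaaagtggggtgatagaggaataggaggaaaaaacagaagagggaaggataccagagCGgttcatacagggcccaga
Hoxd11: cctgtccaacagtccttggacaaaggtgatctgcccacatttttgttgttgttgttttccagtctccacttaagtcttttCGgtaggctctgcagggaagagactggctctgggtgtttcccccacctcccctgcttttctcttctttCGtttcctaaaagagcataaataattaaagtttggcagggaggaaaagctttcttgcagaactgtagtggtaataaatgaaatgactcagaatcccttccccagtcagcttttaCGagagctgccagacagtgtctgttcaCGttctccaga
Hoxd4: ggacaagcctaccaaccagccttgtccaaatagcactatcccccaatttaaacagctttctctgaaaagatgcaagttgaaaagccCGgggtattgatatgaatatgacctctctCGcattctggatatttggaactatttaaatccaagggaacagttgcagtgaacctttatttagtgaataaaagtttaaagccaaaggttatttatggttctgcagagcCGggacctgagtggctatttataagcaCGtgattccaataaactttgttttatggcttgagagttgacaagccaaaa

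The group 13 promoters were the most CpG-rich of those matched. Hoxa13 held 45 CpG in 300 bases and Hoxd13 held 37, counts reached by 1.93% and 5.58% of all windows. Hoxa9, Hoxd4 and 1 of the Hoxd11 windows held 4 each, and the other Hoxd11 window held 25. Over the 24 windows the median was 14.5 CpG (quartiles 9 and 22.75), beside 7 (3 and 20) over all windows. Of the 24, 20 lay above the median of all windows, Hoxa9, Hoxd4, Hoxd8 (6 CpG) and the poorer Hoxd11 window being the exceptions. Among 13 related genes, namely the Evx neighbours, the Pbx and Meis cofactors and the Polycomb genes Ezh1, Ezh2, Eed and Suz12, 11 genes were matched, with a median of 19 CpG and a range of 12 (Evx1) to 41 (Suz12). Whether a promoter lay in a peak could not be read without its place on mm9.

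**Figure D1:**
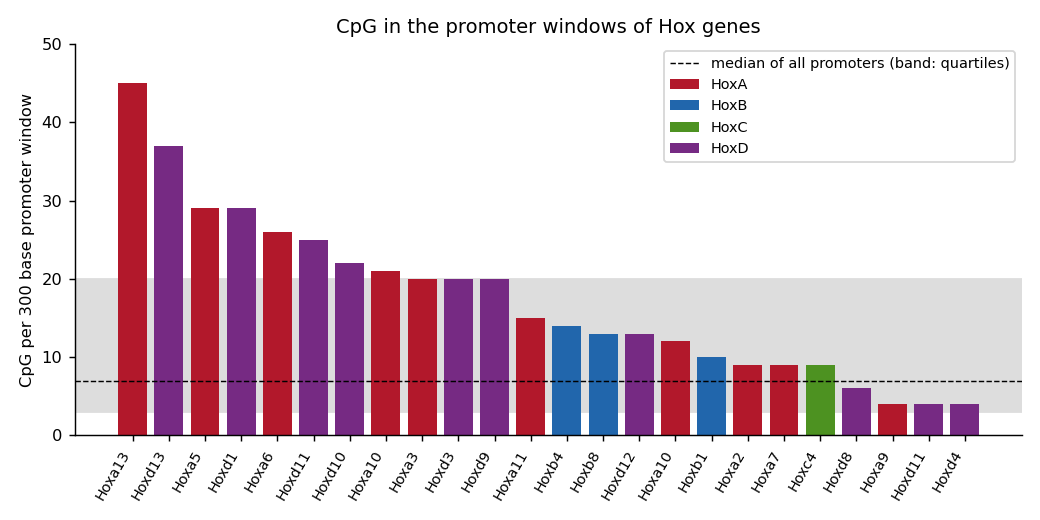
Number of CpG per 300 base promoter window (vertical axis) for the 24 matched windows of 22 Hox genes, coloured by cluster, with the median (dashed, 7) and quartiles (grey band, 3 to 20) of all windows. Hoxa13 (45) and Hoxd13 (37) stand highest, and Hoxa9, Hoxd4 and 1 Hoxd11 window (4 each) lowest.

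The first comparison asked how much 5hmC the clusters carry. All 4 stood above the genome-wide mean and HoxA stood highest. Each value below is a ratio, obtained by dividing a region's share of all hMeDIP fragments by its share of all input fragments, so that 1 is the mean of these libraries and not a fixed amount of 5hmC. In HoxA, 1382 hMeDIP against 352 input fragments gave 2.86 (2.54 to 3.22). HoxB held 1613 and 527 fragments (2.23, 2.02 to 2.46). HoxB is the longest of the clusters, at 177 kb. HoxC held 1055 and 355 fragments (2.16, 1.92 to 2.45), and HoxD 1212 and 395 (2.23, 1.99 to 2.51). Pooled, the clusters reached 2.35 (2.22 to 2.49). Of the 23419 autosomal 100 kb bins with at least 50 input fragments, 2.82% were at or above the HoxA ratio and 7.38% to 8.12% at or above those of the other clusters, with a median bin of 0.748. By the rule given below for steps, 22.9% of these bins were high and 47.9% low, and each cluster, being longer than a bin, would be high. Scaling to the fragments outside peaks multiplies every ratio in the genome by 1.32, a shift of 0.40 on the log2 scale. Centring on the median 5 kb step (0.70) shifts them by 0.51. The height above 1 thus depends on the scale. Both scalings shift all ratios alike, so they cannot change the order of the clusters and are no check of it.

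Among the 6 pairs of clusters, HoxA differed from each of the others beyond counting error. It was 1.28 times HoxB (1.10 to 1.5), 1.32 times HoxC (1.11 to 1.57) and 1.28 times HoxD (1.08 to 1.51). HoxB, HoxC and HoxD could not be told apart at this depth, with quotients of 1.03 (0.879 to 1.21) for HoxB over HoxC, 0.998 (0.856 to 1.16) for HoxB over HoxD and 0.969 (0.818 to 1.15) for HoxC over HoxD. In fragments outside peaks the order was another one. HoxA over HoxC was then 0.994 (0.807 to 1.23), HoxA over HoxB 1.01 (0.834 to 1.23), and HoxD fell below HoxB and HoxC, which were 1.31 and 1.34 times as high.

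Input density in the clusters was near that of the autosomes and below that of the flanks. It gave 324, 298, 298 and 373 fragments per 100 kb in HoxA, HoxB, HoxC and HoxD, beside 327 over the span of the autosomes, so that HoxB and HoxC were slightly below that density and HoxD was above it. Pooled, it was 319 in the clusters, 354 in the 200 kb beside them on the group 13 side and 394 on the anterior side. Median input in a 5 kb step was 16 in the clusters and 18 over all tested autosomal steps.

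Peaks were frequent in all clusters. The authors' list placed 70 peak midpoints in them, namely 18 in HoxA, 25 in HoxB, 13 in HoxC and 14 in HoxD. This is 13.7 per 100 kb, beside 3.73 over the autosomes, and they covered 21.5% of the sequence, beside 5.06%. The 200 kb flanks held 7.75 per 100 kb (9.75% covered) on the anterior side and 2.625 (2.45%) on the group 13 side. HoxC, with 10.9 per 100 kb, did not exceed its anterior flank (11.0, 13.8% covered), while HoxA, HoxB and HoxD exceeded theirs. Among the clusters, HoxA was covered most (31.3%) and HoxC least (14.8%), with HoxB at 17.0% and HoxD at 26.4%. The peaks of the clusters were themselves ordinary in height. Their median fold over input, with 1 fragment added to each library, was 4.75 (quartiles 3.85 and 6.48), beside 4.37 (3.40 and 5.95) over autosomal peaks, and their median width was 1213 bp beside 1153 bp. By the authors' score, 37 of 70 were above the median of the list. For 69 of the 70 the whole interval was above 1, the other being a HoxD peak at 74554386 (2.55, 0.995 upward), singled out after its value was seen. This count was not made over all autosomal peaks, so it does not set the Hox peaks apart. Whether the peaks were called on this hMeDIP library alone is not known, and they are not taken as independent evidence of its signal.

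The strongest peak of the clusters lay in HoxD. It spanned 74569417 to 74577629 (8213 bp), held 238 hMeDIP and 29 input fragments (ratio 5.97, 4.05 to 9.12), and its score of 1009.66 was reached by 0.223% of the list. The next HoxD peaks by score lay close by, at 74560743 to 74562054 with a ratio of 12.9 (4.83 to 48.7) and at 74563201 to 74566792 with a ratio of 6.75 (3.62 to 14.0). The midpoints of these 3 peaks lay 61.4 to 73.5 kb from the group 13 edge. In HoxA the leading peak, 52154420 to 52158707, held 114 and 9 fragments (9.22, 4.69 to 20.7). It was followed by 52116434 to 52121566 (5133 bp, ratio 4.57, 2.90 to 7.52) and 52149440 to 52153457 (4.96, 2.92 to 8.98). HoxA thus had 1 strong group of peaks near its middle and another near its anterior end.

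HoxB peaks had the lowest median score of the 4 clusters (69.7) and the lowest median width (1019 bp). The first by score spanned 96124257 to 96126944 with 88 and 9 fragments (7.12, 3.58 to 16.1). The second, 96226820 to 96229185, lay 174 kb from the group 13 edge, close to the Hoxb1 end, with a ratio of 10.4 (3.84 to 39.4), and the third was 96186348 to 96187874 with 38 and 3 fragments. Hoxb1, the last gene on that side, patterns the hindbrain. In HoxC the first was 102839670 to 102843353, also with 88 and 9 fragments (7.12, 3.58 to 16.1). It was followed by 102845104 to 102846776 and, near the Hoxc4 end, by 102865616 to 102866569, with 2 input fragments each, so that their ratios are very imprecise. All 6 leading peaks of HoxB and HoxC lay at least 71.6 kb from the group 13 edge.

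The second comparison set each cluster against the 200 kb on either side. All 4 clusters stood above the pooled flanks, most in HoxD and least in HoxB. The quotient of cluster over flanks was 2.16 (1.89 to 2.48) for HoxA, 1.34 (1.19 to 1.51) for HoxB, 1.66 (1.45 to 1.91) for HoxC and 2.47 (2.17 to 2.83) for HoxD. In fragments outside peaks it was 1.34, 1.12 (0.976 to 1.28), 1.60 and 1.39, so that for HoxB the interval then took in 1.

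The flanks were unequal. In every cluster the flank on the group 13 side was lower than that on the anterior side. On the group 13 side the ratio was 1.11 (1.01 to 1.22) beside HoxA, 1.22 (1.11 to 1.35) beside HoxB, 0.946 (0.861 to 1.04) beside HoxC and 0.634 (0.570 to 0.706) beside HoxD. On the anterior side it was 1.51 (1.38 to 1.64), 2.03 (1.87 to 2.21), 1.65 (1.51 to 1.79) and 1.15 (1.05 to 1.26) in the same order. The anterior flank was thus 1.36 (1.19 to 1.55), 1.66 (1.46 to 1.90), 1.74 (1.53 to 1.97) and 1.82 (1.58 to 2.09) times the other. For HoxC this quotient was 3.37 with flanks of 100 kb and 1.30 with flanks of 500 kb, and for HoxA it was 1.99 and 1.09. Peak numbers differed the same way, with 4, 8, 7 and 2 peaks on the group 13 side and 14, 19, 22 and 7 on the anterior side.

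Against its group 13 flank each cluster was higher beyond counting error, by 2.58-fold (2.21 to 3.01) in HoxA, 1.82-fold (1.58 to 2.10) in HoxB, 2.29-fold (1.96 to 2.67) in HoxC and 3.52-fold (3.01 to 4.12) in HoxD. For HoxC this was 3.96-fold with a flank of 100 kb, which leaves out the highest step of that flank. Against the anterior flank HoxA was 1.90-fold (1.64 to 2.20), HoxC 1.32-fold (1.13 to 1.53) and HoxD 1.94-fold (1.67 to 2.24) higher. In HoxC the hMeDIP density itself was not higher than in the anterior flank, at 887 against 903 fragments per 100 kb, while the input stood at 298 against 399.5. HoxB was not distinguishable from its anterior 200 kb flank, the side of Skap1, an adaptor protein of lymphocyte signalling, at 1.10 (0.962 to 1.25). The hMeDIP density of HoxB was lower than in that flank, at 911 against 1065.5 fragments per 100 kb, with input at 298 against 381.5. With a flank of 500 kb the HoxB value was 1.14 (1.02 to 1.28), which left out 1, so this call depends on flank size. The HoxC value lost its distance from 1 with a flank of 100 kb, at 1.17 (0.989 to 1.39), and the HoxD value in fragments outside peaks, at 1.11 (0.928 to 1.32).

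**Figure D2:**
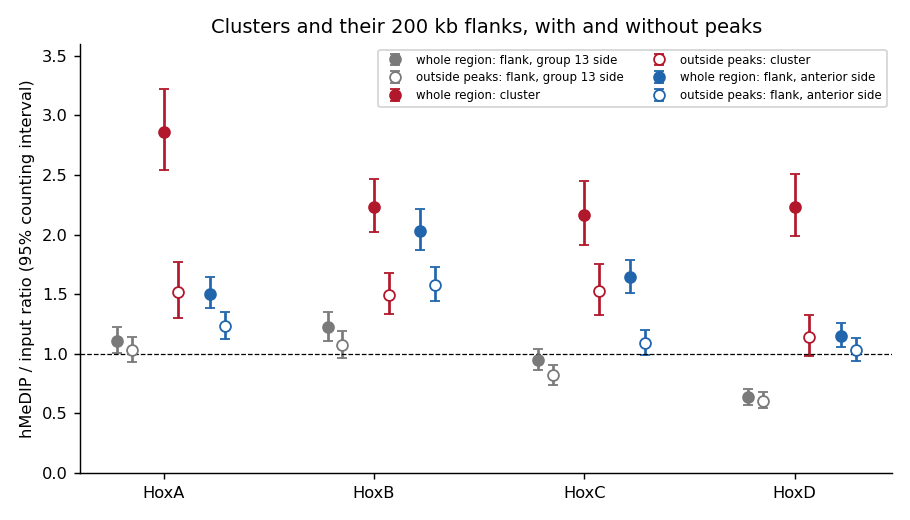
Ratio of hMeDIP over input shares (vertical axis, with 95% counting intervals) for each cluster (red) and its 200 kb flanks on the group 13 side (grey) and the anterior side (blue). Filled points are whole regions and open points leave out fragments in peaks, and in each cluster the grey flank (0.634 to 1.22) stands below the blue one (1.15 to 2.03).

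Outside the peaks the clusters still stood above the genome. With the peaks' fragments left out of the region and the scale kept, the ratio was 1.52 (1.30 to 1.77) in HoxA, 1.5 (1.33 to 1.68) in HoxB, 1.52 (1.33 to 1.75) in HoxC and 1.14 (0.984 to 1.33) in HoxD, beside 0.757 for all sequence outside peaks. Peaks took 63.0% of the hMeDIP fragments of HoxA, 61.7% of those of HoxD, 44.1% of those of HoxB and 38.7% of those of HoxC, beside 28.3% in the genome. HoxA and HoxD, with the largest shares of fragments in peaks, were also the clusters with the most sequence covered by peaks.

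The third comparison asked how 5hmC is spread inside a cluster. In all 4 the side towards the anterior genes was higher than the side towards group 13. Each cluster was divided into 4 equal parts, numbered from the group 13 end, a division chosen after the values were seen. In HoxB the ratio of parts 1 to 4 was 0.781 (0.615 to 0.993), 2.34 (1.94 to 2.83), 2.70 (2.20 to 3.34) and 3.24 (2.66 to 3.96). In HoxC it was 0.785 (0.582 to 1.06), 2.12 (1.64 to 2.74), 2.35 (1.86 to 2.99) and 3.43 (2.71 to 4.38). Part 1 of both was at or below the genome-wide mean and part 4 was highest, neighbouring parts beyond the first having overlapping intervals.

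HoxA and HoxD had another shape. In HoxA the parts stood at 1.88 (1.47 to 2.42), 1.60 (1.22 to 2.11), 3.95 (3.16 to 4.98) and 3.89 (3.09 to 4.95), a step between parts 2 and 3. In HoxD they stood at 1.45 (1.12 to 1.88), 1.57 (1.22 to 2.03), 4.51 (3.62 to 5.68) and 1.57 (1.26 to 1.98), all above the genome-wide mean. Part 3 of HoxD stood highest, and part 4, towards Hoxd1, was back at the level of the first ones. Parts 3 and 4 together were 2.24 times (1.75 to 2.87) parts 1 and 2 in HoxA, 1.88 times (1.53 to 2.30) in HoxB, 2.0 times (1.55 to 2.57) in HoxC and 1.91 times (1.5 to 2.42) in HoxD. Input density per part ran from 267 to 441 fragments per 100 kb, lowest in part 3 of HoxB and highest in part 4 of HoxD.

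**Figure D3:**
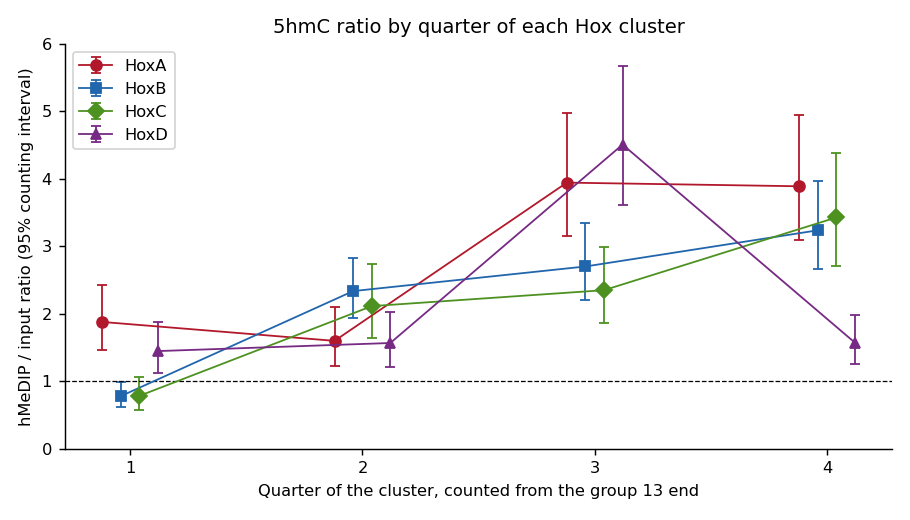
Ratio of hMeDIP over input shares (vertical axis, with 95% counting intervals) in 4 equal parts of each cluster, numbered from the group 13 end (horizontal axis). HoxB and HoxC start below 1 (0.781 and 0.785) and are highest in part 4, while HoxD peaks at 4.51 in part 3 and returns to 1.57.

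The ends of the clusters were also compared, as the outermost 20 kb on each side. The Hoxb13 end of HoxB held 42 hMeDIP and 63 input fragments (0.485, 0.320 to 0.729) and the Hoxb1 end 183 and 47 (2.83, 2.05 to 3.99), a quotient of 0.171 (0.10 to 0.293). The Hoxc13 end of HoxC held 42 and 55 fragments (0.556, 0.363 to 0.846) and the Hoxc4 end 245 and 63 (2.83, 2.14 to 3.80), a quotient of 0.196 (0.117 to 0.330). Neither of these group 13 ends held a peak. Hoxb13 is best known from the tail bud and prostate, and Hoxc13 from hair and nails.

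The Hoxa13 end of HoxA stood at 1.84 (1.36 to 2.52), below its anterior end at 3.85 (2.98 to 5.03), a quotient of 0.478 (0.318 to 0.721). Peaks covered 10.2% of the Hoxa13 end and 62.5% of the anterior one. In fragments outside peaks the quotient was 1.22 (0.639 to 2.29). In HoxD the Hoxd13 end (1.63, 1.24 to 2.16) and the Hoxd1 end (1.74, 1.34 to 2.28) did not differ beyond counting error at 20 kb, with a quotient of 0.936 (0.633 to 1.38). At both other sizes the Hoxd13 end was lower, with 0.337 (0.169 to 0.667) for ends of 10 kb and 0.528 (0.401 to 0.697) for ends of 40 kb, so the call depends on the size of the end. The 20 kb of the Hoxd13 end hold 3 peaks, the first of which starts over 10 kb from the edge. Over the 4 clusters the quotient was 0.421 (0.341 to 0.521), or 0.216 with ends of 10 kb, and for HoxC it was 0.394 with ends of 40 kb.

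Across the edges the sides behaved differently. At the 4 group 13 edges pooled, the ratio was 1.86 (1.5 to 2.32) at 10 to 20 kb inside, 0.545 (0.417 to 0.710) in the last 10 kb inside and 0.404 (0.304 to 0.533) in the first 10 kb outside. It was 0.647 (0.510 to 0.821) at 10 to 20 kb outside and 1.01 (0.804 to 1.27) at 40 to 50 kb. The pooled value at 10 to 20 kb inside hides a difference between clusters. Single 5 kb steps there stood at 3.52 in HoxA and at 4.05 and 2.22 in HoxD. In HoxB they stood at 0.485 and 0.624 and in HoxC at 0.728 and 0.971, so these clusters had no such rise there. The 10 kb classes just inside and just outside the edge were the lowest of those from 50 kb inside to 200 kb outside. The class at 80 to 90 kb outside came next, at 0.567 (0.432 to 0.744), with an interval that overlapped both. The split by side was chosen after the values were seen. At the 4 anterior edges the ratio was 3.03 (2.49 to 3.70) at 10 to 20 kb inside, 2.52 (2.08 to 3.07) in the last 10 kb and 1.62 (1.32 to 2.0) in the first 10 kb outside. It was 2.39 (1.94 to 2.95) at 30 to 40 kb outside, so it was lower outside than inside and higher again within the flank. With all 8 edges pooled, the last 10 kb inside stood at 1.53 (1.32 to 1.78) and the first 10 kb outside at 0.985 (0.842 to 1.15).

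**Figure D4:**
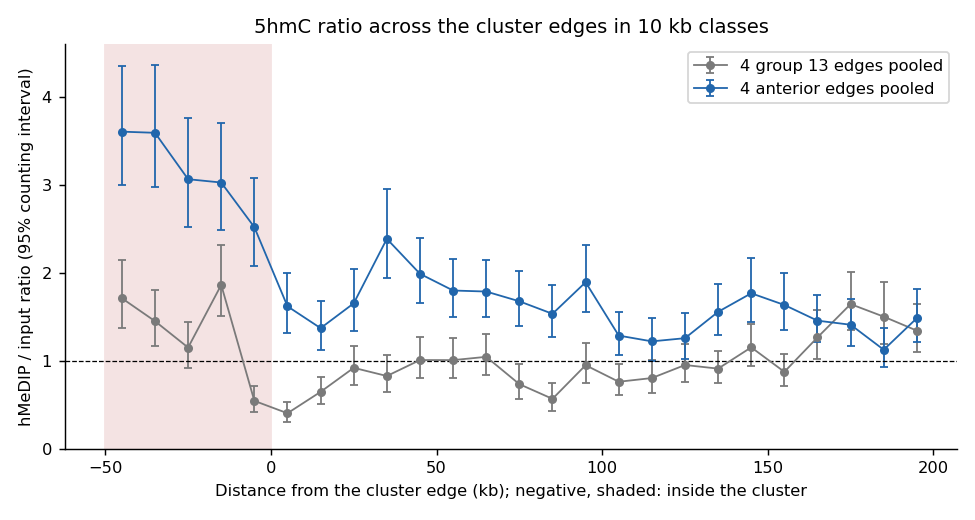
Ratio of hMeDIP over input shares (vertical axis, with 95% counting intervals) in 10 kb classes of distance from the cluster edge (horizontal axis), for the 4 group 13 edges (grey) and the 4 anterior edges (blue). Grey falls to 0.545 just inside and 0.404 just outside the edge, where blue stands at 2.52 and 1.62. The grey value at 10 to 20 kb inside pools steps above 1 of HoxA and HoxD with steps below 1 of HoxB and HoxC.

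In single steps of 5 kb, most of a cluster was called high. A step was called if its interval left out the genome-wide mean and it lay beyond 0.5 on the log2 scale, among steps with at least 5 input fragments. Of the 102 cluster steps, 64 (62.7%) were high, against a background of 16.9% of 439324 autosomal steps, and 6 (5.88%) were low, against 31.4%. Scaled to the fragments outside peaks, 71.6% of cluster steps were high and 1.96% low, against 24.7% and 19.5% of autosomal steps. HoxA had 17 of 22 steps high, HoxB 21 of 35, HoxC 14 of 24 and HoxD 12 of 21. The flanks on the anterior side had 63 of 160 steps high, and those on the group 13 side 21 of 158 high and 35 low. Beside HoxD none of 39 steps on the group 13 side was high and 16 were low. The median step was 2.10 in the clusters and 0.70 over the autosomes. Within the clusters log2 ratios of steps had an SD of 1.17, with 0.46 expected from counting. Over the autosomes the SD was 1.38, with 0.59 expected, so this spread was not particular to the clusters. Steps thus differ by more than counting error in both, while any one of them is imprecise.

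Steps without a peak were not all low, a split looked at after the values were seen. Of the 102, 43 held no base of a peak, and 9 of these were called high and 6 low. The background over peak-free autosomal steps was 3.86% high and 38.3% low. The median ratio of the peak-free cluster steps was 1.03, beside 0.555 over the autosomes, and ran from 0.752 in HoxD to 1.31 in HoxA. Peak-free steps of the anterior flanks had a median of 1.13, with 17.1% high and 5.71% low. Those of the group 13 flanks had a median of 0.791, with 4.38% high and 25.5% low. The raised level of peak-free steps was thus not particular to the clusters. All 6 low cluster steps were free of peaks, as were 137543 of the 137761 low steps over the autosomes.

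The highest step of all was 74570001 to 74575000 in HoxD, wholly inside the strongest peak. With 160 hMeDIP against 12 input fragments it reached 9.71 (5.41 to 19.2), which 0.0697% of autosomal steps reached. The second in HoxD was 74560001 to 74565000 at 5.03 (3.17 to 8.37). The lowest step also lay in HoxD, 74500001 to 74505000 at the Hoxd13 end, with 6 and 24 fragments (0.182, 0.0608 to 0.457), and the next lowest was 74525001 to 74530000 at 0.510 (0.238 to 1.06). From lowest to highest the steps of HoxD thus spanned 53.3-fold, the widest range of the 4 clusters.

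In HoxA the highest steps were 52155001 to 52160000, with 119 and 13 fragments (6.66, 3.75 to 12.9), and 52110001 to 52115000 (5.99, 3.36 to 11.6), 55 and 100 kb from the group 13 edge. Its lowest were 52180001 to 52185000, with 8 and 20 fragments (0.291, 0.111 to 0.690), and 52205001 to 52210000 (0.383, 0.159 to 0.866) at the Hoxa13 end. The first of these low steps lay inside the cluster between steps of 1.54 and 1.80, in the longest peak-free stretch of HoxA. In HoxB the highest were 96185001 to 96190000, with 95 and 10 fragments (6.92, 3.6 to 14.9), and 96225001 to 96230000 (6.15, 3.29 to 12.8). Its lowest, 96060001 to 96065000 (0.364, 0.152 to 0.815) and 96080001 to 96085000 (0.409, 0.159 to 0.984), were centred within 28.5 kb of the Hoxb13 edge. In HoxC the highest were neighbours, 102845001 to 102850000 (5.58, 2.78 to 12.7) and 102840001 to 102845000 with 97 and 13 fragments (5.43, 3.03 to 10.6). Its lowest, 102750001 to 102755000 with 9 and 19 fragments (0.345, 0.137 to 0.80) and 102755001 to 102760000 (0.437, 0.169 to 1.07), were the first of the Hoxc13 end.

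The highest step of a flank was lower than that of its cluster in all 8 flanks. On the anterior side it reached 5.98 (3.42 to 11.3) beside HoxB at 96265001 to 96270000 and, with the same counts, at 96385001 to 96390000, 4.37 (2.74 to 7.30) beside HoxC at 103000001 to 103005000, 3.71 (2.31 to 6.24) beside HoxA at 52050001 to 52055000 and 3.28 (1.5 to 8.16) beside HoxD at 74625001 to 74630000. On the group 13 side it reached 4.53 (2.22 to 10.4) beside HoxA at 52230001 to 52235000, 4.26 (2.40 to 8.14) beside HoxC at 102575001 to 102580000, 3.40 (1.38 to 10.03) beside HoxB at 95930001 to 95935000 and 1.34 (0.746 to 2.48) beside HoxD at 74400001 to 74405000. The intervals overlapped those of the highest cluster step in all of these but the last.

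**Figure D5:**
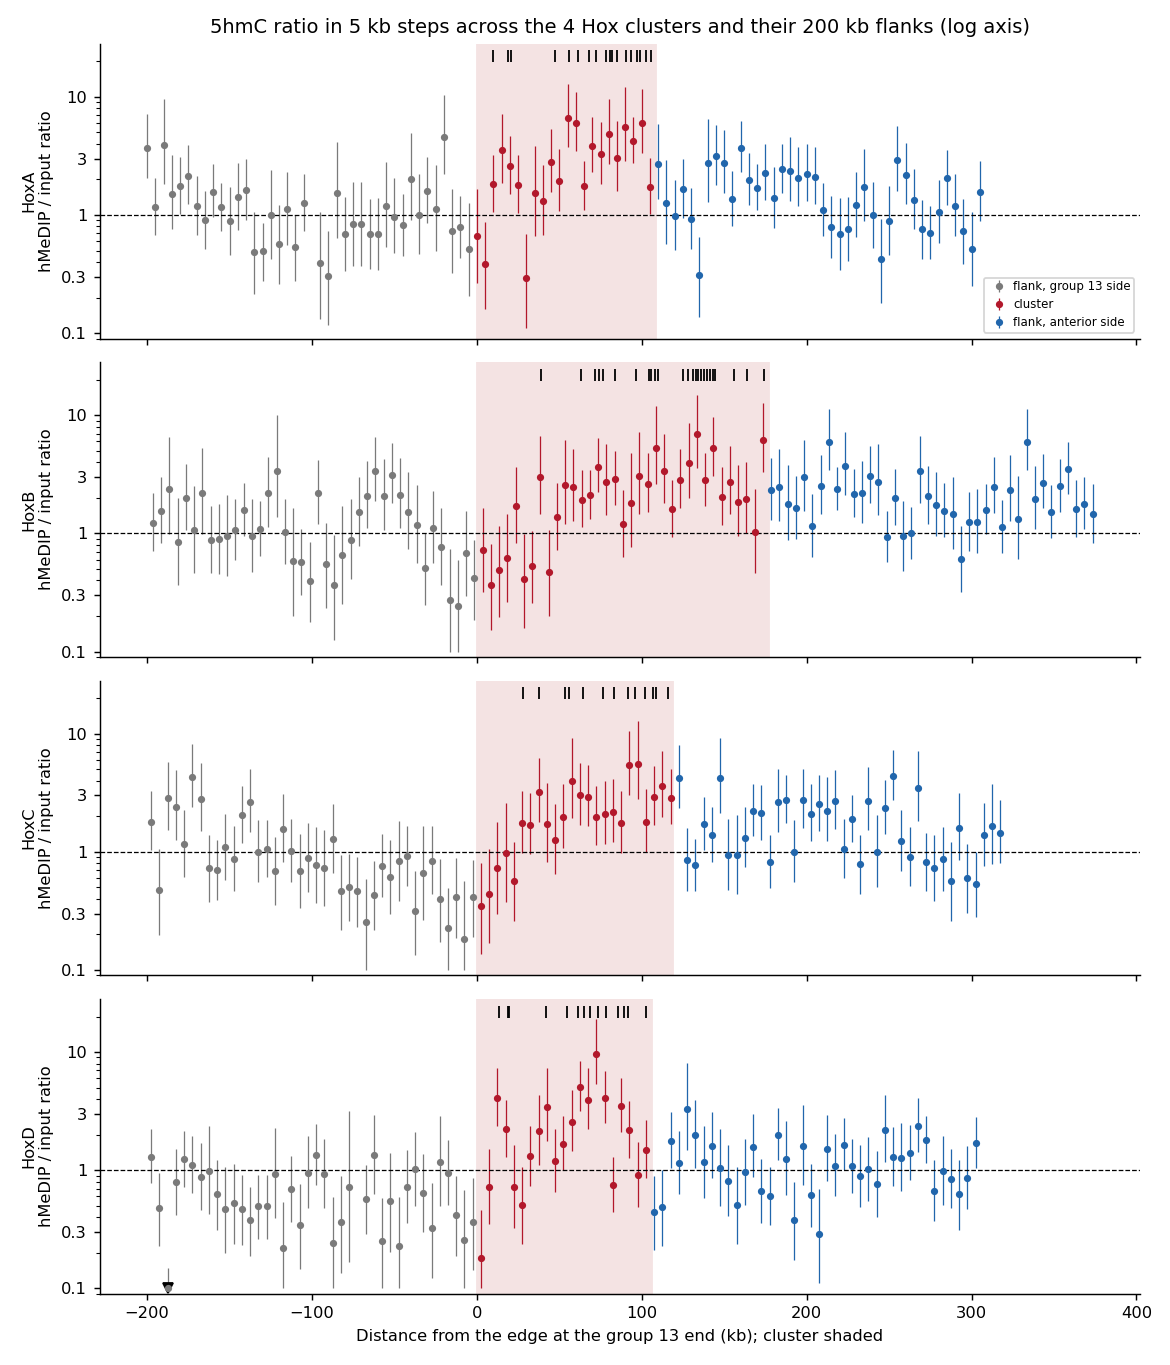
Ratio of hMeDIP over input shares (log vertical axis) in 5 kb steps with at least 5 input fragments, against distance from the group 13 edge in kb, for each cluster (red, shaded) and its 200 kb flanks on the group 13 side (grey) and the anterior side (blue). Bars are 95% counting intervals cut at 0.1, ticks at the top of each panel mark peak midpoints in the cluster and the triangle a step with 0 hMeDIP fragments, and the red points reach 9.71 in HoxD and fall to 0.182 at its left edge.

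Each cluster had a run of steps at or below the genome-wide mean at its group 13 end, and HoxA, HoxB and HoxD had such steps further inside as well. The longest run of neighbouring steps at or below the mean covered 25 kb in HoxC, from 102750001 to 102775000, with 56 hMeDIP and 73 input fragments (0.558, 0.387 to 0.802). It covered 20 kb in HoxB, from 96055001 to 96075000, with 46 and 63 fragments (0.532, 0.355 to 0.790). These runs of HoxB and HoxC began within 1 kb of the group 13 edge. In HoxA the longest run covered 10 kb across that edge, from 52205001 to 52215000 (0.493, 0.269 to 0.886). It reached past the cluster bound at 52212500, so part of it lay in the flank. With steps of 10 kb no step of HoxA was at or below the mean (a run of 0 kb). HoxD had a pair of runs tied at 10 kb. The first lay at the group 13 edge, from 74500001 to 74510000 (0.408, 0.234 to 0.697), and the other inside the cluster, from 74520001 to 74530000, with steps of 0.728 and 0.510. Steps at or below the mean numbered 3 of 22 in HoxA, 7 of 35 in HoxB, 5 of 24 in HoxC and 6 of 21 in HoxD.

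The longest peak-free stretch lay at the group 13 edge in HoxB and HoxC and inside the cluster in HoxA and HoxD. The longest in HoxB began at the Hoxb13 edge and ran for 38.2 kb, with 112 and 121 fragments (0.674, 0.516 to 0.879). That of HoxC began at the Hoxc13 edge and ran for 27.3 kb, with 73 and 84 fragments (0.633, 0.456 to 0.876). The longest in HoxA (24.7 kb, 52166445 to 52191140) and in HoxD (21.0 kb, 74519894 to 74540896) lay inside the cluster, 21.4 to 46.1 kb and 19.9 to 40.9 kb from the group 13 edge. Their ratios of 1.20 (0.904 to 1.60) and 1.11 (0.813 to 1.52) did not differ from the genome-wide mean beyond counting error, although they were chosen as free of peaks.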

How the data were processed

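1 hMeDIP and 1 input library from mouse kidney were analysed. Per the submitters' processing notes, CASAVA, Bowtie 1.0.0 and build mm9 were used, with alignment settings not stated there. The deposited position files give a 350 bp stretch, a strand and a count of reads per line, each line read here as 1 fragment. The authors' peak list carries a score per peak (50 to 2936.71) and, per the file headers, comes from MACS; its version and control were not given in the sources used here. Fragments were assigned by midpoint. Ratios carry exact conditional binomial (Clopper-Pearson) intervals and quotients of ratios exact conditional intervals (scipy 1.17.1). Regions were named by rule: the 2 highest and 2 lowest steps and the 3 peaks with the highest score per cluster, the highest step per flank, and the promoters with the most and fewest CpG and of group 13. The members and lists were chosen with earlier results of these data known. Step calls were tested on simulated Poisson counts. Ratios per gene were not run, since no mm9 annotation was used here. Alternatives were other scalings, fragment length, read weights, flank, end and step sizes, thresholds and peak rules.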

Additional observations from a re-analysis of the deposited data

Results flagged for a closer look

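The number of reads per position was not used in the comparisons above. In the 4 clusters, 71 of 5262 hMeDIP positions held 2 or more reads, which is 1.35% (1.06 to 1.70, exact Clopper-Pearson interval), against 6 of 1629 input positions, or 0.368% (0.135 to 0.80). It is listed because the hMeDIP share stood above that of the input library. The shares over the genome were 1.33% and 0.384%, and no position in the clusters held more than 2 reads. Weighting by reads changed none of the 31 values recomputed with it beyond its interval.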

How the results depend on the processing

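Of 197 recomputed values, 134 kept their direction and stayed within the main interval or, for counts and shares, within 1.5 times, 61 moved and 2 turned. Fragments of 150 bp and read weights moved none. Scaling outside peaks gave ratios of 3.77, 2.94, 2.86 and 2.95 for HoxA, HoxB, HoxC and HoxD and 3.10 pooled, with 1.96% of cluster and 19.5% of autosomal steps low. Centring on the median step gave 4.08, 3.18, 3.09, 3.19 and 3.36. With fragments outside peaks only, scaled to themselves, HoxA, HoxB, HoxD and the pool stood at 2.0, 1.97, 1.51 and 1.88. In the same fragments cluster over both flanks was 1.34 (HoxA), 1.12 (HoxB), 1.39 (HoxD) and 1.36 (pooled), over the group 13 flank 1.47, 1.39, 1.86 (HoxC), 1.88 and 1.64, and over the anterior flank 1.23, 0.948, 1.11 and 1.16 for HoxA, HoxB, HoxD and the pool. Anterior over group 13 flank was 1.33 for HoxC and 1.41 pooled, HoxA over HoxB 1.01, HoxB over HoxD 1.31 and HoxC over HoxD 1.34. HoxA over HoxC turned to 0.994 and the HoxA ends to 1.22, both with intervals that took in 1. With 100 kb flanks, cluster over anterior flank was 1.48 (HoxA) and 1.34 (pooled), over group 13 flank 3.96 (HoxC) and 2.91 (pooled), and anterior over group 13 flank 1.99 (HoxA), 3.37 (HoxC) and 2.17 (pooled). With 500 kb flanks, cluster over group 13 flank was 2.18 (HoxA), 1.37 (HoxB) and 2.02 (pooled), over anterior flank 1.59 (HoxC), and anterior over group 13 flank 1.09, 1.20, 1.30 (HoxC) and 1.29 (pooled). The causes of these shifts were not tested. Ends of 10 kb gave 0.337 (HoxD) and 0.216 (pooled), and ends of 40 kb 0.394 (HoxC) and 0.528 (HoxD). Steps of 10 kb gave 9.62% of cluster steps low and a longest low run of 0 kb in HoxA. The 46327 peaks with the highest scores left 10, 8 and 7 in HoxB, HoxC and HoxD and 37 in all, and merging peaks within 1 kb left 15 in HoxB. Classes of 20 kb gave 1.98 inside the edge. Ratios per gene were not run, since no gene annotation of mm9 was used. No paired analysis was possible because each group holds 1 library. A 5 kb step held a median of 16 input fragments, which limits the precision of single steps.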
